A study of Mus musculus with 12 samples.

Results

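The Ly6 genes measured here were Ly6a, Ly6c1, Ly6c2, Ly6d, Ly6e, Ly6i and Ly6k, which are 7 of the 20778 rows of the count table. The members were chosen by their gene symbols and, for Ly6i, on its measured counts, which were highest in the IFNγ libraries. The level of Ly6i in IFNγ libraries is therefore given as a description with no test, whereas the other 6 genes were listed by family name. All 7 members passed the filter on low counts.

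Ly6 genes encode small cell surface proteins of the three-finger fold, most of which are held in the outer leaflet of the membrane by a glycosylphosphatidylinositol (GPI) anchor. They are widely used as markers of haematopoietic cells. Ly6a is the stem cell antigen Sca-1, which is also found on activated lymphocytes. Ly6c1 and Ly6c2 encode the Ly6C antigens of monocytes and of memory CD8 T cells. Ly6d marks early B lineage progenitors. Ly6e is an interferon-inducible gene that is known for its effects on virus entry, and Ly6k is best known for its role in sperm. Ly6i is a close relative of Ly6a.

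The libraries were made from CD8 T cells of the spleen of C57BL/6 mice, isolated with magnetic beads (MojoSort), at an age given by the labels as 6 weeks. The methods of the study state an older age range for the mice used throughout, so the age is uncertain. Cells were cultured for 6 h and were left untreated (Naive), or received an antibody to CD3 (αCD3), a part of the T cell receptor complex, interferon gamma at 70 ng/ml (IFNγ), or lipopolysaccharide (LPS), the ligand of Toll-like receptor 4. The unit of the αCD3 and LPS doses differs between the fields of the labels, and the doses are not given here. Each of the 4 groups had 3 libraries, numbered replicate 1 to 3, and the labels do not say whether these came from separate mice or cultures. The p-values then measure the spread between these libraries, which may be technical.

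Library depth was 10196248 to 27610175 estimated counts, and levels are given as counts per 1000000 library counts (CPM). As a check of the labels, 3 short lists were compared with Naive, where 12.4% of all genes were called in IFNγ, 38.6% in αCD3 and 49.3% in LPS. Of 7 interferon response genes, 5 were higher in IFNγ, 5 in LPS and 3 in αCD3, and Ciita was lower in LPS and αCD3. Between IFNγ and LPS, Gbp2 (4060 against 1540 CPM, adjusted p = 0.011) and Ciita (131 against 103 CPM, adjusted p = 0.0332) were higher in IFNγ. Of 6 T cell receptor response genes, 5 were higher in αCD3, 3 in LPS and 2 in IFNγ, while Egr2 and Egr3 were lower in LPS and Egr2 in IFNγ. Of 6 NF-κB response genes, 5 were higher in LPS and 1 in αCD3. Libraries numbered 1 stood apart from the others of their group. The chi-square per degree of freedom between replicate 1 and another library of the group was 20.6 to 55.6, and that between replicates 2 and 3 was 4.65 to 5.77. Within groups, replicate 1 had the lowest level of Ly6a, Ly6c2 and Ly6i in 4 of 4 groups. It also had the lowest summed level of myeloid, erythroid, natural killer and CD4 T cell markers in 4 of 4 groups. For erythroid markers the sums were 140 to 233 CPM in replicate 1 and 538 to 1750 CPM in the other libraries, and for myeloid markers 360 to 519 and 449 to 999 CPM. Their part in the Ly6 levels was not tested. Markers of B cells were abundant in these libraries labelled as CD8 T cells. The summed level of 10 B cell markers was 1880 to 3410 CPM and that of 9 T cell markers was 1200 to 2170 CPM, so that the ratio of B to T cell markers was 1.98 to 2.3 in Naive, 1.05 to 1.29 in αCD3, 1.84 to 2.02 in IFNγ and 1.35 to 1.98 in LPS. All of these markers had counts in every library. Fewer cells of a type and less RNA per cell cannot be told apart in such bulk samples, and neither can the cell type that a Ly6 transcript came from.

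All 7 genes lie on chromosome 15 within 350 kb (GRCm38, GENCODE M21). Ly6d (chr15:74762056-74763620) and Ly6k (chr15:74796874-74799986) lie at one end of the cluster, and Ly6e (chr15:74955051-74959905) is the single member on the plus strand. Ly6i (chr15:74979534-74983430), Ly6a (chr15:74994877-74998031), Ly6c1 (chr15:75044018-75048830) and Ly6c2 (chr15:75108158-75111970) follow at the other end, on the minus strand. The latter 4 genes are near-copies of each other. Over the coding sequence, Ly6c1 and Ly6c2 were identical at 97.7% of aligned positions and Ly6a and Ly6i at 86.3%, and other pairs among the 4 at 81.3% to 81.8%. Pairs that included Ly6d, Ly6e or Ly6k were at 46.5% to 53.5%. The first 75 coding bases of the 4 near-copies are shown to display how alike these genes are. They run 5′ to 3′ on the coding strand from the start codon, and capitals mark bases that differ from Ly6c2.
Ly6c2: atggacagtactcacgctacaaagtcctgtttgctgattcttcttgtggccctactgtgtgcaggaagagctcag
Ly6c1: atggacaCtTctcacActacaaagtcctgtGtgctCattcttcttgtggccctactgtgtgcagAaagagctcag
Ly6i: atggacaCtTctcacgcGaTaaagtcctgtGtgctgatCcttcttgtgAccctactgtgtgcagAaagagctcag
Ly6a: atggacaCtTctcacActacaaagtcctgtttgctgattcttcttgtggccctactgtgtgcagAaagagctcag
In this stretch Ly6c1 differed from Ly6c2 at 6 bases, Ly6i at 8 and Ly6a at 4. At 3 of these positions the 3 genes shared a base that Ly6c2 lacked. Of all 31-base words in the transcripts of a gene, the share found in no other gene was 53.2% for Ly6c1, 68.1% for Ly6a, 76.2% for Ly6c2, 80.8% for Ly6i, 99.6% for Ly6e and 100% for Ly6d. Ly6c1 shared 581 such words with Ly6c2 and 276 with Ly6a. Estimated counts of Ly6c1, and to a lesser degree of Ly6a, Ly6c2 and Ly6i, thus depend on how the estimator divided shared reads. For Ly6k the share was 61.0%, since the antisense gene Gm17189 overlaps it, and whether the counting used strand is not stated.

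The sequence before the start of Ly6c1 and Ly6c2 is shown because both genes rose in IFNγ and in LPS. RefSeq promoter windows (GRCm38.p6) were at hand for these 2 of the 7 members, and the 250 bases upstream of the first listed start of each are printed 5′ to 3′ on the minus strand, with motif matches in capitals.
Ly6c1, chr15:75048838-75049087: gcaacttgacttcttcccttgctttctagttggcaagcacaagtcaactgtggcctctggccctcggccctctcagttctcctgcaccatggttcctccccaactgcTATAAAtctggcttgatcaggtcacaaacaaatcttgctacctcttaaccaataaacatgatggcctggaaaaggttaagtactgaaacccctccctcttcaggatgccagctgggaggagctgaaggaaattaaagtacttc
Ly6c2, chr15:75111972-75112221: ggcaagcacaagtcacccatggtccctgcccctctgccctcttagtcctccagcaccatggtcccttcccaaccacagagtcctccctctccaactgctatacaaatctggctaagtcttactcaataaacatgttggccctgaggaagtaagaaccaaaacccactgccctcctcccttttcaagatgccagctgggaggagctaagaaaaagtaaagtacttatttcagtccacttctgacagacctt
Both strands were searched for the interferon gamma activated sequence TTCNNNGAA, the interferon-stimulated response element core (GAAA, any 2 bases, GAAA), the NF-κB motif (GGG, any 2 bases, TTTCC) and the TATA box TATAAA. The Ly6c1 window held TATAAA, which 12.4% of the 32851 upstream windows of this length held, and the Ly6c2 window held none of the 4 motifs. The shares of all windows with the other 3 motifs were 7.02%, 2.98% and 1.41%, in the order given. A local alignment of the pair of windows had 72.2% identical bases over 227 columns.

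Ly6a, Ly6c1 and Ly6c2 were higher in IFNγ than in Naive libraries, and Ly6d, Ly6e and Ly6k did not pass the test. Of the 6 members tested in this comparison, 3 were called higher and none lower at an adjusted p under 0.05, where 12.4% of the 12122 genes tested were called, 8.17% higher and 4.27% lower. The median log2 fold change was 1.12 over these 6 members, without Ly6i, and -0.02 over all genes tested. Against Naive, αCD3 libraries had 4 of 7 members higher and none lower, where 38.6% of genes were called, 22.9% higher and 15.7% lower. The median log2 fold change was 1.22 over the members and -0.02 over all genes. LPS libraries had 5 of 7 members higher than Naive and none lower, where 49.3% of genes were called, 26.9% higher and 22.3% lower. The medians were 1.52 and -0.01. At an unadjusted p under 0.05 in edgeR's test, 0 members were lower than Naive in each of the 3 comparisons, as also in DESeq2 and limma-voom at an adjusted p under 0.05. These 3 comparisons share their Naive libraries.

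**Figure D1:**
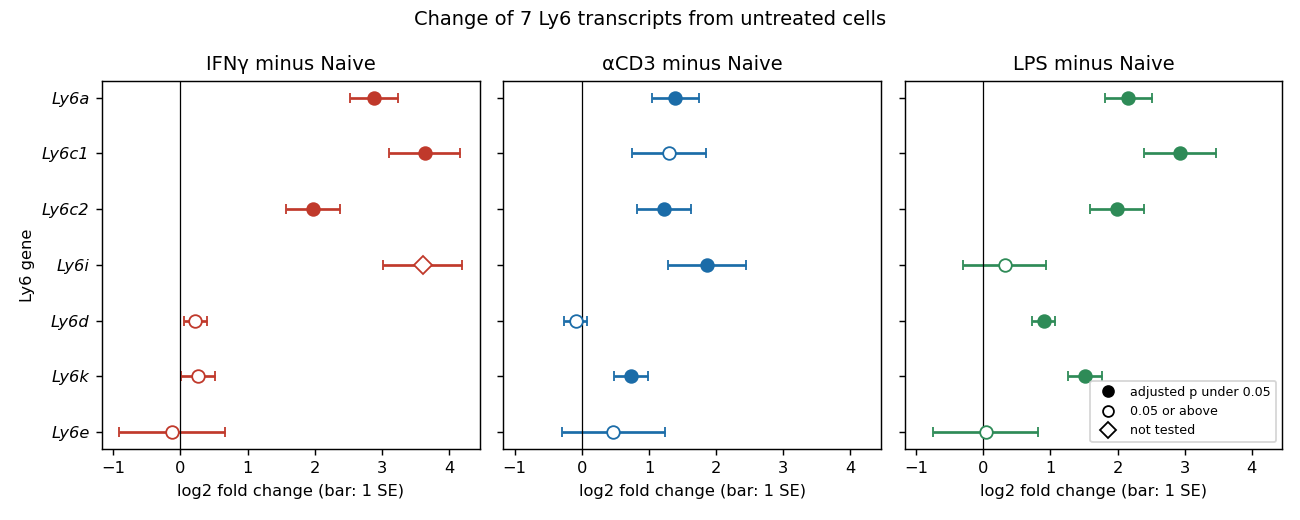
Fitted log2 fold change of each Ly6 gene against Naive in IFNγ, αCD3 and LPS libraries, with bars of 1 SE. Filled circles have an adjusted p under 0.05, open circles do not, and the diamond marks Ly6i in IFNγ, which was not tested: Ly6a and Ly6c2 are filled in all 3 panels, and Ly6i sits at 3.61 in IFNγ, 1.86 in αCD3 and 0.32 in LPS.

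The αCD3 count moved when single libraries were left out. It was 1 of 7, with Ly6a alone, without Naive replicate 1 (31% of all genes called), Naive replicate 3 (29.6%), αCD3 replicate 2 (25.4%) or αCD3 replicate 3 (27.6%), 2 without Naive replicate 2 (30.5%) and 5 without αCD3 replicate 1 (40.1%). With the replicate number as a block it was 5, where 52.4% of genes were called, adding Ly6c1 (log2 fold change 1.27 ± 0.41 (SE), adjusted p = 0.0242). With all replicate 1 libraries left out, a choice made after seeing the data, the counts against Naive were 3 of 6 in IFNγ, 5 of 7 in αCD3 and 5 of 7 in LPS, where 23.3%, 48.8% and 55.1% of all genes were called.

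Ly6a had CPM values of 29.5, 47.8 and 45.5 in Naive, 71.3, 137 and 114 in αCD3, 101, 264 and 181 in LPS and 269, 352 and 279 in IFNγ, for replicates 1, 2 and 3. All stimulated libraries exceeded all Naive libraries, and all IFNγ libraries exceeded all LPS libraries. Ly6a rose 7.34-fold in IFNγ against Naive (log2 fold change 2.88 ± 0.36 (SE, n = 3 against 3), adjusted p = 0.000962), 4.46-fold in LPS (2.16 ± 0.35, adjusted p = 0.000662) and 2.62-fold in αCD3 (1.39 ± 0.35, adjusted p = 0.0101). It was higher in IFNγ than in αCD3 by 1.49 ± 0.34 on the log2 scale (adjusted p = 0.00635). In the order of levels, the neighbours IFNγ and LPS differed by 0.72 ± 0.34 (adjusted p = 0.113; 95% interval -0.02 to 1.47), and αCD3 and LPS by -0.77 ± 0.34 (adjusted p = 0.143), so neither pair passed the test. With the replicate block both pairs passed it, at 0.81 ± 0.17 (adjusted p = 0.0048) and -0.73 ± 0.17 (adjusted p = 0.0142). So did the first pair without LPS replicate 2 (1.09 ± 0.33, adjusted p = 0.0335) and the second without LPS replicate 1 (-1.06 ± 0.29, adjusted p = 0.0319). Each IFNγ library was above the LPS library of its own number, by 2.66-, 1.33- and 1.54-fold.

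**Figure D2:**
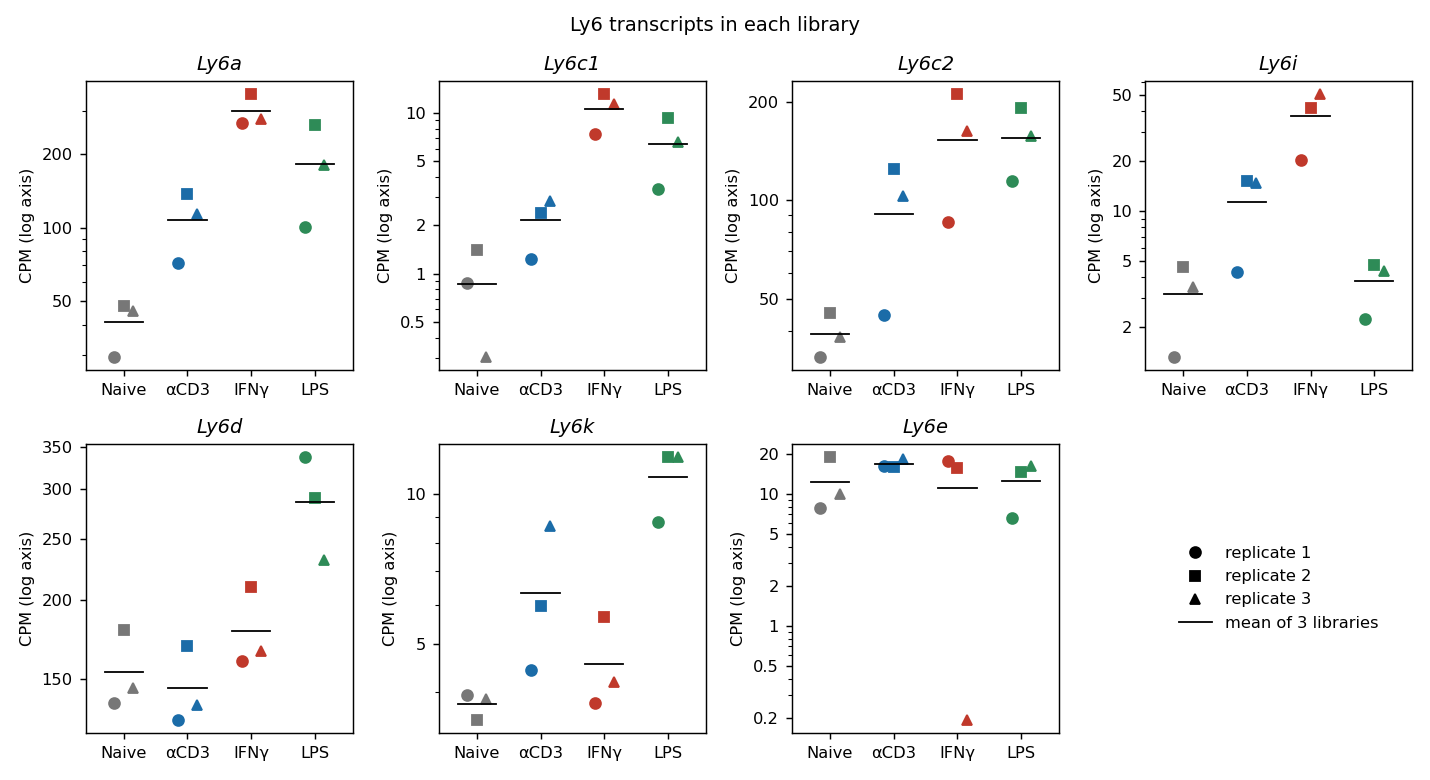
Level of each Ly6 gene in the 12 libraries, in CPM on a log axis whose range differs between panels. Markers give the replicate number and lines the mean of the 3 libraries of a group: Ly6a and Ly6c1 are highest in IFNγ, Ly6d and Ly6k in LPS, and 1 IFNγ library of Ly6e lies at 0.195 CPM.

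Ly6c2, the more abundant of the Ly6C genes, had CPM values of 33.3, 45.4 and 38.4 in Naive, 44.6, 125 and 103 in αCD3, 85.9, 211 and 163 in IFNγ and 115, 192 and 157 in LPS. The IFNγ and LPS libraries all exceeded the Naive libraries, while αCD3 replicate 1 lay within the Naive range. Ly6c2 rose 3.94-fold in IFNγ (log2 fold change 1.98 ± 0.40, adjusted p = 0.0102), 3.98-fold in LPS (1.99 ± 0.40, adjusted p = 0.00239) and 2.32-fold in αCD3 (1.22 ± 0.40, adjusted p = 0.0338). The αCD3 call was lost without each of Naive replicates 1, 2 and 3 and αCD3 replicates 2 and 3, with adjusted p of 0.0584 to 0.137, and also with limma-voom (adjusted p = 0.0647) and in the unfiltered fit (adjusted p = 0.0664). The means in IFNγ (153 ± 63.2 CPM, SD, n = 3) and LPS (155 ± 38.7 CPM) differed by -0.02 ± 0.39 on the log2 scale (adjusted p = 0.979; 95% interval -0.87 to 0.84). IFNγ against αCD3 (0.76 ± 0.39, adjusted p = 0.154) and αCD3 against LPS (-0.78 ± 0.39, adjusted p = 0.195) did not pass the test, and both passed it with the replicate block, at 0.78 ± 0.19 (adjusted p = 0.0111) and -0.85 ± 0.19 (adjusted p = 0.012).

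Ly6c1 was near the lower end of detection in untreated cells. Its CPM values were 0.878, 1.41 and 0.303 in Naive, 1.23, 2.40 and 2.82 in αCD3, 3.37, 9.33 and 6.60 in LPS and 7.45, 13.1 and 11.3 in IFNγ. All IFNγ and LPS libraries exceeded all Naive and αCD3 libraries. Ly6c1 rose 12.5-fold in IFNγ (log2 fold change 3.64 ± 0.53, adjusted p = 0.00177) and 7.62-fold in LPS (2.93 ± 0.53, adjusted p = 0.00115), and it was 5.07-fold higher in IFNγ than in αCD3 (adjusted p = 0.00343). It was lower in αCD3 than in LPS by 1.63 ± 0.49 on the log2 scale (log2 fold change -1.63, adjusted p = 0.0399), a call lost without any 1 of Naive replicate 1, αCD3 replicates 1, 2 and 3, IFNγ replicates 2 and 3 or LPS replicates 2 and 3 (adjusted p = 0.0522 to 0.156), in the unfiltered fit (adjusted p = 0.0508) and in the fit of these groups alone (adjusted p = 0.0664). The difference between αCD3 and Naive was 1.30 ± 0.55 (adjusted p = 0.083; 1.62 ± 0.56 and adjusted p = 0.0423 without αCD3 replicate 1; adjusted p = 0.0415 with DESeq2), and that between IFNγ and LPS was 0.71 ± 0.46 (adjusted p = 0.238).

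Because reads shared by Ly6c1 and Ly6c2 could be divided in different ways, the pair was also summed into 1 row. The sum was higher than Naive in IFNγ (log2 fold change 2.04 ± 0.40, adjusted p = 0.00851), LPS (2.02 ± 0.40, adjusted p = 0.00214) and αCD3 (1.22 ± 0.40, adjusted p = 0.0327). Between stimuli the sum was at 0.82 ± 0.39 for IFNγ against αCD3 (adjusted p = 0.123) and at -0.80 ± 0.39 for αCD3 against LPS (adjusted p = 0.179). Ly6c2 made up most of the sum, which therefore does not bear on the calls of Ly6c1 itself. The ratio of Ly6c2 to Ly6c1 CPM was 32.2 to 127 in Naive, 36.2 to 52.1 in αCD3, 20.6 to 34.1 in LPS and 11.5 to 16.1 in IFNγ, so that Ly6c1 took its largest part of the pair in the IFNγ libraries. The ranges of IFNγ and LPS did not overlap. Ly6c1 also shares 276 words of 31 bases with Ly6a, whose mean was highest in IFNγ as well. The part of Ly6a reads in the Ly6c1 counts, and so in this ratio, was not tested.

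Ly6i was highest in the IFNγ libraries, as the choice of members had it. Its CPM values were 20.2, 41.5 and 50.5 in IFNγ, against 1.32, 4.61 and 3.51 in Naive, 4.30, 15.1 and 14.7 in αCD3 and 2.25, 4.71 and 4.34 in LPS. The lowest IFNγ library was above the highest library of every other group. As a description, the fitted fold was 12.2 against Naive, 9.78 against LPS and 3.35 against αCD3. Comparisons without IFNγ were open to test. Ly6i rose 3.63-fold in αCD3 against Naive (log2 fold change 1.86 ± 0.58, adjusted p = 0.0284), although αCD3 replicate 1 lay within the Naive range, and this call was lost without Naive replicate 1 (adjusted p = 0.0943), Naive replicate 3 (adjusted p = 0.064), αCD3 replicate 2 (adjusted p = 0.0981) or αCD3 replicate 3 (adjusted p = 0.0887). It was also lost with limma-voom (adjusted p = 0.129), in the unfiltered fit (adjusted p = 0.0518) and in the fit of these groups alone (adjusted p = 0.0584). In LPS against Naive the log2 difference was 0.32 ± 0.62 (adjusted p = 0.704), with a 95% interval of -1.07 to 1.70. αCD3 against LPS gave 1.55 ± 0.59 (adjusted p = 0.0925), which became 1.52 ± 0.19 with the replicate block (adjusted p = 0.000202) and 1.96 ± 0.50 without αCD3 replicate 1 (adjusted p = 0.0291), and which DESeq2 called at 1.59 ± 0.54 (adjusted p = 0.02).

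Ly6i and its neighbour Ly6a parted in the LPS libraries. The ratio of Ly6a to Ly6i CPM was 44.7, 56.1 and 41.6 in LPS, against 22.4, 10.4 and 13.0 in Naive, 16.6, 9.03 and 7.76 in αCD3 and 13.3, 8.47 and 5.53 in IFNγ. Each of the 3 LPS ratios was above all Naive and αCD3 ratios. The IFNγ ratios are given as a description, since Ly6i was chosen for its level there. When Ly6a, Ly6c1, Ly6c2 and Ly6i were summed into 1 row, the log2 difference from Naive was 2.05 ± 0.35 in LPS (adjusted p = 0.000875) and 1.33 ± 0.34 in αCD3 (adjusted p = 0.0119), and 2.58 ± 0.36 in IFNγ, which was not tested since it holds Ly6i.

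**Figure D3:**
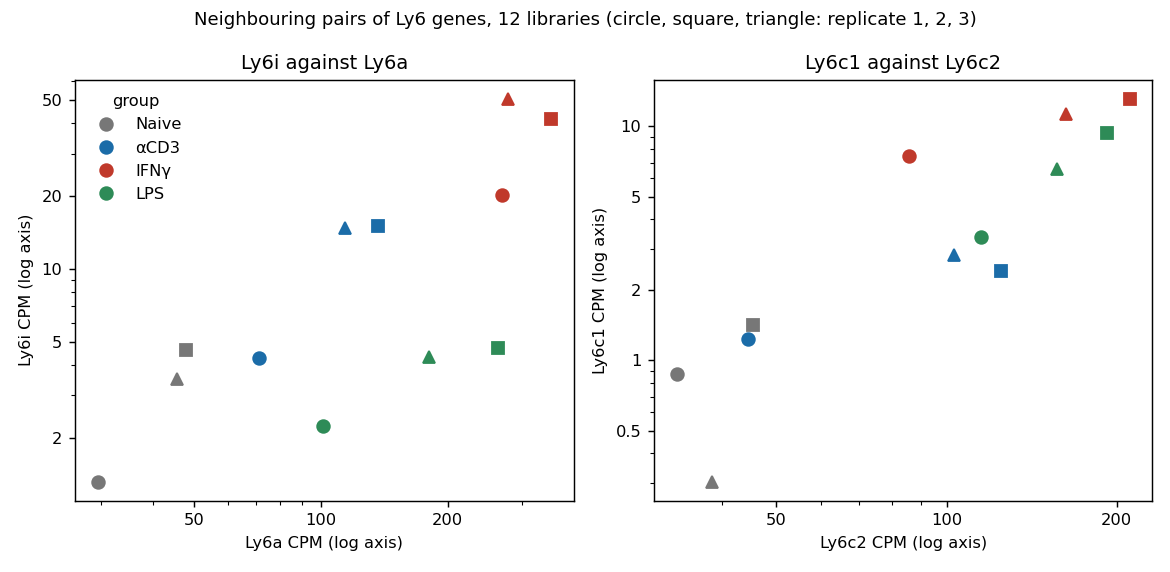
Level of Ly6i against Ly6a and of Ly6c1 against Ly6c2 in the 12 libraries, in CPM on log axes, with colours for the groups and marker shapes for the replicate number. The 3 LPS libraries have Ly6a at 101 to 264 CPM with Ly6i at 2.25 to 4.71 CPM, and the 3 IFNγ libraries have the highest Ly6i.

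Ly6d, the B lineage gene, had CPM values of 137, 179 and 145 in Naive, 129, 169 and 136 in αCD3, 160, 210 and 166 in IFNγ and 338, 291 and 232 in LPS. All LPS libraries exceeded all others. It rose 1.87-fold in LPS against Naive (log2 fold change 0.90 ± 0.17, adjusted p = 0.00127), and was lower than in LPS both in αCD3 (-0.99 ± 0.17, adjusted p = 0.00231) and in IFNγ (-0.69 ± 0.17, adjusted p = 0.0073). The last call was lost with all replicate 1 libraries left out (-0.49 ± 0.19, adjusted p = 0.077). IFNγ (0.22 ± 0.17, adjusted p = 0.465) and αCD3 (-0.09 ± 0.17, adjusted p = 0.71) did not differ from Naive beyond the test's threshold. Beside it, the summed level of the 10 B cell markers was 3130 to 3410 CPM in Naive and 1880 to 2470 CPM in LPS, where 3 markers were called lower (Cd79b at -1.88, Cd79a at -1.62 and Fcrla at -1.56 on the log2 scale, adjusted p of 1.98e-05 to 0.000543), 1 was called higher (Pax5, 0.39, adjusted p = 0.0228) and 6 were not called. The part of B cells in the Ly6d level was not tested.

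Ly6k was low and rose with LPS. Its CPM values were 3.95, 3.52 and 3.87 in Naive, 3.81, 5.66 and 4.19 in IFNγ, 4.44, 5.96 and 8.62 in αCD3 and 8.79, 11.9 and 11.9 in LPS. LPS libraries were above all others, and αCD3 libraries were above all Naive libraries. Ly6k rose 2.86-fold in LPS (log2 fold change 1.52 ± 0.25, adjusted p = 0.000568) and 1.66-fold in αCD3 (0.73 ± 0.25, adjusted p = 0.0381), the latter call being lost without each of Naive replicates 1, 2 and 3 and αCD3 replicates 2 and 3 (adjusted p = 0.0747 to 0.166), with limma-voom (adjusted p = 0.0996), with scaling by library size alone (adjusted p = 0.0601) and in the fit of these groups alone (adjusted p = 0.0665). It was lower in IFNγ than in LPS (-1.25 ± 0.25, adjusted p = 0.0022) and lower in αCD3 than in LPS (-0.79 ± 0.24, adjusted p = 0.0426). The latter call was lost without any 1 of Naive replicates 1, 2 and 3, αCD3 replicates 1 and 2, IFNγ replicate 3 or LPS replicates 2 and 3 (adjusted p = 0.0539 to 0.129), with scaling by library size alone (adjusted p = 0.0574), in the unfiltered fit (adjusted p = 0.0561) and in the fit of these groups alone (adjusted p = 0.111). Ly6k in IFNγ against αCD3 was at -0.46 ± 0.25 (adjusted p = 0.172), and at -0.68 ± 0.23 without αCD3 replicate 1 (adjusted p = 0.0429). For IFNγ against Naive the difference was 0.26 ± 0.25 (adjusted p = 0.575).

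Ly6e showed no call in any of the 6 comparisons, at an unadjusted p under 0.05 either. Its CPM values were 7.90, 19.1 and 9.93 in Naive, 16.2, 16.0 and 18.4 in αCD3, 6.54, 14.6 and 16.2 in LPS and 17.7, 15.6 and 0.195 in IFNγ. IFNγ replicate 3 held an estimated count of 1.851, against 218.8 and 175.9 in the other IFNγ libraries. The log2 difference between IFNγ and Naive was -0.12 ± 0.79 (adjusted p = 0.95) with it and 0.45 ± 0.40 (adjusted p = 0.6) without it.

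Between stimuli, 2 of 6 members tested were higher in IFNγ than in αCD3 (Ly6a and Ly6c1) and none were lower, where the test called 37.2% of all genes, 15.8% upward and 21.4% downward. In IFNγ against LPS, 2 of 6 were lower in IFNγ (Ly6d and Ly6k) and none were higher, where 40.4% of genes were called, 18% higher and 22.4% lower. With all replicate 1 libraries left out, this count was 1 (Ly6k), where 47.8% of genes were called. It was 3 with the replicate block (52.7% of genes called) or without LPS replicate 2 (31.9%), which added Ly6a as higher in IFNγ. In αCD3 against LPS, 3 of 7 were lower in αCD3 (Ly6c1, Ly6d and Ly6k), where 19.4% of genes were called, 9.64% higher and 9.76% lower. This count was 1 (Ly6d) without Naive replicate 1 (18.7% of genes called), αCD3 replicate 2 (15.5%), IFNγ replicate 3 (17.3%), LPS replicate 2 (11.6%) or LPS replicate 3 (12.2%), and it was 6 with the replicate block, which added Ly6a and Ly6c2 as lower and Ly6i as higher in αCD3 and called 34.7% of all genes.

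Summed over the 7 genes, the level was 254 ± 44 CPM in Naive (SD, n = 3), 380 ± 101 in αCD3, 695 ± 144 in IFNγ and 657 ± 114 in LPS. The make-up of that sum differed between groups. Ly6d made up 58.8% to 64.1% of it in Naive and 24.6% to 28.3% in IFNγ, while Ly6a made up 13.8% to 18.5% in Naive and 41.4% to 47.7% in IFNγ. Per kb of the longest coding transcript, the order of mean levels in Naive was Ly6d (206 CPM per kb), Ly6c2 (47.5), Ly6a (42.9), Ly6e (5.39), Ly6k (4.78), Ly6i (2.72) and Ly6c1 (1.02), with overlapping libraries between Ly6c2 and Ly6a, between Ly6e and Ly6k and between Ly6i and Ly6c1. In IFNγ, Ly6a led at 314 ± 47.3 CPM per kb and was followed by Ly6d (240 ± 36.9), Ly6c2 (187 ± 76.9), Ly6i (32.3 ± 13.5), Ly6c1 (12.6 ± 3.42), Ly6k (5.75) and Ly6e (4.90). The ranges overlapped between the neighbours Ly6a and Ly6d, Ly6d and Ly6c2, and Ly6k and Ly6e in this order. In αCD3 and LPS Ly6d led, at 194 ± 28.7 and 386 ± 71.4 CPM per kb, ahead of Ly6a (112 ± 34.8 and 190 ± 85.6) and Ly6c2 (111 ± 50.6 and 188 ± 47.1), which overlapped each other. Ly6i had a mean of 3.26 ± 1.15 in LPS, where its libraries overlapped those of Ly6e and Ly6c1, and of 9.83 ± 5.30 in αCD3, where they overlapped those of Ly6k and Ly6e.

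**Figure D4:**
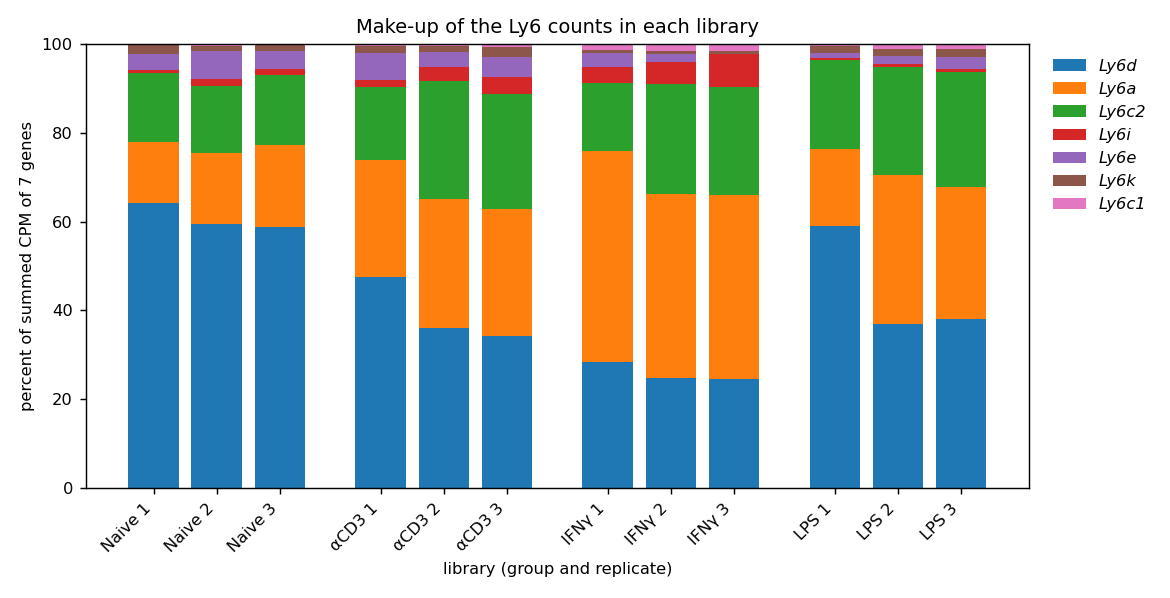
Share of each gene in the summed CPM of the 7 Ly6 genes, in percent, for each of the 12 libraries. Ly6d takes 58.8% to 64.1% of the Naive bars and 24.6% to 28.3% of the IFNγ bars, where Ly6a takes 41.4% to 47.7%.

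Along chromosome 15, 29 genes of the table lay between the members or within 500 kb of the outermost ones, of which 5 beside the members were tested and 17 were below the filter. Ly6a, Ly6c1 and Ly6c2, at the Ly6c2 end of the cluster, had log2 differences of 1.98 to 3.64 in IFNγ. Ly6i lies at the same end, at 3.61, but was chosen for its IFNγ level and is not counted with them. The neighbours Arc, Jrk, Them6 and Lynx1 were at -0.32 to 0.37 in IFNγ with no call. Jrk and Them6 were higher than Naive in αCD3 (0.50, adjusted p = 0.00488, and 0.71, adjusted p = 0.00216) and in LPS (0.57, adjusted p = 0.00188, and 0.80, adjusted p = 0.000766). The Ly6 gene 2010109I03Rik (Ly6m) held few counts, 6, 10 and 8 in Naive, 2, 0 and 0 in αCD3, 0 in each IFNγ library and 13, 20 and 10 in LPS. It was called lower than Naive in IFNγ (adjusted p = 0.0164) and in αCD3 (adjusted p = 0.00914), and with a floor of 3 counts per library it was at least 1.95-fold lower in IFNγ. In the fit of IFNγ and Naive alone, without the LPS libraries where its counts were highest, it was not called.

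**Figure D5:**
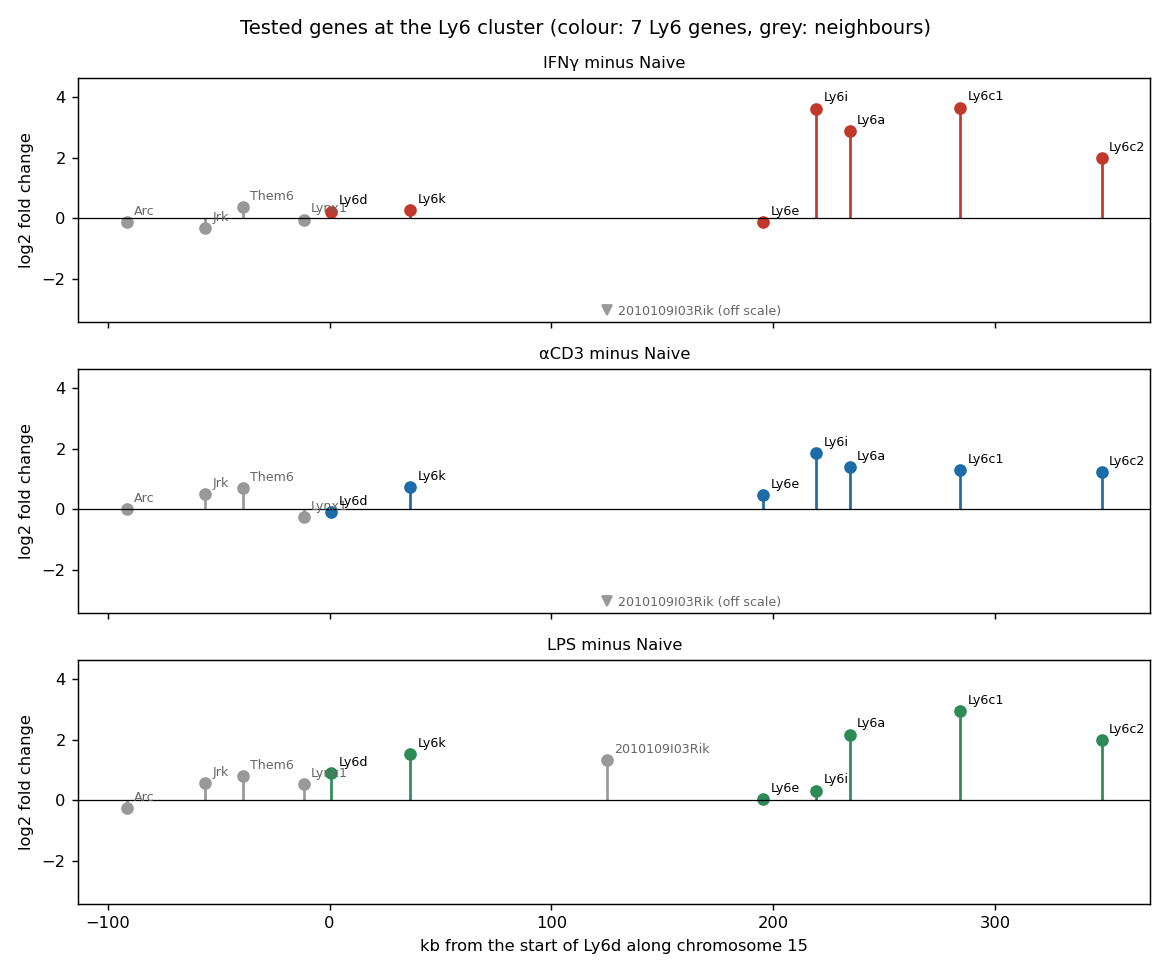
Fitted log2 fold change against Naive of the tested genes at the Ly6 cluster, by distance in kb from the start of Ly6d on chromosome 15, in IFNγ, αCD3 and LPS libraries. Coloured points are the 7 members and grey points their neighbours, with 2010109I03Rik, a gene of 69 counts in all, off scale in IFNγ and αCD3: Ly6a, Ly6c1 and Ly6c2 stand at 1.98 to 3.64 in IFNγ, and Ly6i, chosen for its level there, at 3.61.

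The wider family was mostly at low counts. Of 36 other genes of the Ly6 and urokinase receptor family, 34 were in the table, 8 of them had no count in any library, 21 had 1 to 100 counts over the 12 libraries, and 6 were tested. Against Naive, none of the 6 was higher and 1 was lower in IFNγ (2010109I03Rik), none was higher and 2 were lower in αCD3 (2010109I03Rik and Lypd6b, -1.80 ± 0.36, adjusted p = 0.00292), and 1 was higher in LPS (Lynx1, 0.54 ± 0.20, adjusted p = 0.0415), where 12.4%, 38.6% and 49.3% of all genes were called in the 3 comparisons. The LPS count was 0 without Naive replicate 1 (41.8% of all genes called), Naive replicate 3 (42.1%), αCD3 replicate 1 (49.6%), αCD3 replicate 3 (46.7%) or LPS replicate 2 (38.6%). It was also 0 in the unfiltered fit (33.5%) and in the fit of these groups alone (47.3%). It was 4 with the replicate block (59.5%), and 2 with limma-voom (49.2%) or with scaling by library size alone (53.8%). In the fits of the compared groups alone, the counts were 0 in IFNγ (11.3%) and 1 in αCD3 (36.7%). Lynx1 encodes a modulator of nicotinic acetylcholine receptors. The list's median log2 fold change was -0.21 in IFNγ, -0.41 in αCD3 and 0.18 in LPS.

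The anchor that holds Ly6 proteins is built by the Pig enzymes and remodelled by Pgap1 and Mppe1. Of 29 such genes tested, 2 were higher and 1 lower than Naive in IFNγ, 4 higher and 2 lower in αCD3, and 7 higher and 8 lower in LPS, where 12.4%, 38.6% and 49.3% of all genes were called, with list medians of -0.08, 0.06 and -0.05 on the log2 scale. The αCD3 count of 6 was 2 without Naive replicate 3 (29.6% of all genes called), αCD3 replicate 2 (25.4%) or αCD3 replicate 3 (27.6%). It was 3 without Naive replicate 1 (31%) and 10 without αCD3 replicate 1 (40.1%). With the replicate block it was 13 (52.4%). The IFNγ count of 3 was 7 with the block (24.9%) and 8 with scaling by library size alone (18.8%). In IFNγ, Mppe1, which removes a side group from the anchor, rose by 1.11 ± 0.12 (adjusted p = 0.000322), Piga, of the first step of anchor synthesis, rose by 0.60 ± 0.11 (adjusted p = 0.00549) and Pigh, of the same complex, had -0.40 ± 0.12 (adjusted p = 0.0452). In αCD3, Pigw (0.64) and Pigu (0.50) rose most and Pigyl (-0.52) and Pigc (-0.32) were lowered most among the called. In LPS, Pigw rose by 1.20 ± 0.15 (adjusted p = 9.73e-05) and Pigf by 0.63, and Pgap1, an inositol deacylase, was at 7.43 ± 2.63 CPM against 37.5 ± 4.66 CPM in Naive (-2.35 ± 0.33, adjusted p = 0.000261), with Pigx at -0.61.

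Of 18 tested genes for other GPI-anchored surface proteins, 3 were higher and 1 lower in IFNγ, 4 higher and 4 lower in αCD3, and 5 higher and 5 lower in LPS, beside the same 12.4%, 38.6% and 49.3% of all genes, with list medians of -0.21, -0.51 and -0.35. The IFNγ count of 4 was 1 without Naive replicate 2 (6.91% of all genes called) or IFNγ replicate 2 (6.38%). It was 2 without Naive replicate 1 (9.45%), Naive replicate 3 (6.79%) or IFNγ replicate 3 (7.44%). The LPS count of 10 was 5 without LPS replicate 2 (38.6%). With the replicate block the counts were 7 in IFNγ (24.9%) and 13 in αCD3 (52.4%), where it had been 8. Bst2, which encodes the antiviral protein tetherin, was among the called in all 3, at 138 ± 62.3 CPM in IFNγ (2.60 ± 0.52, adjusted p = 0.00882), 105 ± 59.4 in αCD3 (2.19, adjusted p = 0.0071) and 193 ± 44.2 in LPS (3.08, adjusted p = 0.000831), against 22.9 ± 6.10 in Naive. Bst1 rose (1.48) and Cd48 was lower (-0.28) in IFNγ. Cd160, a receptor of cytotoxic lymphocytes, rose by 3.27 ± 0.20 in αCD3 (adjusted p = 4.69e-06), where Nt5e (-0.71) and Cd24a (-0.59) were lower. In LPS, Sema7a rose by 1.61 ± 0.16 (adjusted p = 2.47e-05), and Cd55 (-1.95) and Thy1 (-0.73) were lower.

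Ly6C is also a marker of memory CD8 T cells, so 14 genes of CD8 memory and activation were counted. In IFNγ 4 were higher and none lower, in αCD3 3 were higher and 4 lower, and in LPS 4 were higher and 3 lower, where 12.4%, 38.6% and 49.3% of all genes were called, with list medians of 0.08, -0.08 and 0.25. The IFNγ count of 4 was 2 without Naive replicate 2 (6.91% of all genes called), Naive replicate 3 (6.79%), IFNγ replicate 2 (6.38%) or IFNγ replicate 3 (7.44%). The LPS count of 7 was 13 without LPS replicate 1 (49.8%) and 12 with the replicate block (59.5%). Cd69, an early activation antigen, rose by 1.40 ± 0.19 in IFNγ (adjusted p = 0.00132), 1.37 ± 0.19 in αCD3 (adjusted p = 0.000337) and 2.14 ± 0.20 in LPS (adjusted p = 1.48e-05). Eomes, a transcription factor of memory cells, rose in IFNγ (0.97) and αCD3 (1.29), and Tbx21, which encodes T-bet, rose in LPS (2.48). Il7r (-2.12) and S1pr1 (-1.41) were lower in αCD3, and S1pr1 (-0.78) and Cxcr3 (-0.65) in LPS. Over these 4 lists and the 3 comparisons with Naive, 68 calls were made, and 106 with the replicate block. With the block, 24.9% of all genes were called in IFNγ, 52.4% in αCD3 and 59.5% in LPS.

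Ly6C is carried by monocytes as well, and myeloid markers had counts in these libraries. The summed level of 14 myeloid markers was 519 to 999 CPM in Naive, 360 to 540 in αCD3, 479 to 845 in IFNγ and 369 to 666 in LPS. Against Naive, none of the 14 was higher and 1 was lower in IFNγ, none was higher and 7 were lower in αCD3, and 1 was higher and 6 were lower in LPS, beside 12.4%, 38.6% and 49.3% of all genes called in either direction. For the 9 T cell markers, none was called in IFNγ, 5 were higher and 1 lower in αCD3, and 6 were lower in LPS. For the 10 B cell markers, 1 was lower in IFNγ and 4 were lower in αCD3. The sums in IFNγ libraries, where Ly6a, Ly6c1 and Ly6c2 were called higher, overlapped those in Naive for T cell and myeloid markers, and lay below them for B cell markers (2840 to 2930 against 3130 to 3410 CPM). Neutrophil markers summed to 143 to 262 CPM, dendritic cell markers to 49.4 to 123, natural killer cell markers to 9.51 to 53.0, CD4 T cell markers to 66.9 to 122 and erythroid markers to 140 to 1750. Erythroid sums were 140 to 785 CPM in Naive, 168 to 727 in αCD3, 233 to 1750 in IFNγ and 200 to 1210 in LPS. Each IFNγ and LPS library was above the Naive library of its own number, and none of the 7 erythroid markers was called against Naive. The part of these cell types in the Ly6 levels was not tested.

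The genes whose log2 CPM was most like that of a member over the 12 libraries, among 10002 candidates, are given with Pearson's r as a description. The libraries share groups and replicate numbers, so these values hold the group differences. For Ly6a they were Gm12185 (0.988), Psmb9 (0.988) and Ifi47 (0.987). For Ly6c2 they were Phf11a (0.994), Herc6 (0.994) and Nmi (0.992), and for Ly6c1 Plscr3 (0.975), Rnf139 (0.961) and Zfp513 (0.959). Ly6i was most like Clic5 (0.974), Hk3 (0.968) and Fgl2 (0.965). Values of r with Ly6i hold the IFNγ level for which it was chosen. Fgl2 was at 278 ± 86.9 CPM in IFNγ, 92.8 ± 47.9 in αCD3, 63.4 ± 27.8 in LPS and 52.9 ± 17.2 in Naive, and thus also had LPS near Naive. Ly6d was most like Slc43a3 (0.98), Tnfrsf13c (0.946), the BAFF receptor of B cells, and Tmcc3 (0.938). Ly6k was most like Rtn4ip1 (0.968), Fra10ac1 (0.962) and Mcrip1 (0.956), and Ly6e most like Wrb (0.927), Atxn1l (0.917) and Zfp719 (0.904). Among the members, r was 0.937 for Ly6a and Ly6c1, 0.907 for Ly6a and Ly6c2, 0.897 for Ly6c1 and Ly6c2, 0.753 for Ly6a and Ly6i, and 0.669 for Ly6d and Ly6k, while Ly6e with any other member was between -0.325 and 0.213.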

How the data were processed

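RNA of CD8 T cells in 12 libraries (4 groups of 3) was sequenced from mRNA libraries (INCPM mRNA Seq). The authors deposited 1 table of estimated counts per gene symbol made with kallisto on mm10, whose version and annotation are not given in the sources used here; the submitters' processing notes also name DESeq2. Estimated counts were rounded to whole numbers. One edgeR 4.0.16 quasi-likelihood fit (R 4.3.3, filterByExpr, TMM, robust) over the 12 libraries tested 12122 of 20778 genes in 6 comparisons. Benjamini-Hochberg adjustment ran over all genes tested, with a gene called at an adjusted p under 0.05. Standard errors were taken from the log2 fold change and its F statistic, and 95% intervals from the matching t distribution. CPM values used TMM library sizes, of factors 0.922 to 1.09. The fitting code was run on simulated counts with a common spread for all genes and independent libraries. That run does not bear on the pairing of the real libraries by replicate number. Depth was 10196248 to 27610175 estimated counts.

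The members and gene lists were chosen with earlier results of these data known. Named genes were all members, the 3 genes most correlated with each (log2 CPM, prior count 2, mean of at least 5 CPM in the highest group), the called list genes with the 2 largest changes in each direction against Naive, and neighbours within 500 kb. The replicate numbers paired the libraries: the deviations from group means of same-numbered libraries correlated at 0.117 to 0.401 in all 18 pairs, against -0.354 to 0.102 between other numbers. Alternatives were DESeq2 1.42.0, limma 3.58.1 (voom), library size scaling, no filter, a replicate block, fits of the compared groups alone, summed near-copies, leaving out each library and, added after seeing the data, leaving out all replicate 1 libraries.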

Additional observations from a re-analysis of the deposited data

How the results depend on the processing

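The counts of members called in IFNγ against Naive, LPS against Naive and IFNγ against αCD3 stayed within 1.5 times of the reported count under every alternative run. For αCD3 against Naive (4 called), limma-voom called 1 (39.3% of all genes called), the unfiltered fit 2 (25%) and the fit of these groups alone 2 (36.7%). Leaving out single libraries gave 1 to 5 (25.4% to 40.2%). For αCD3 against LPS (3 called), the unfiltered fit called 1 (11.8%), the fit of these groups alone 1 (12.3%), the replicate block 6 (34.7%) and the fit without the replicate 1 libraries 6 (29.4%). Leaving out single libraries gave 1 to 4 there (11.6% to 21%). For IFNγ against LPS (2 called), the fit without the replicate 1 libraries called 1 (47.8%). Calls over the 4 expression lists rose from 68 to 106 with the replicate block. The share of all genes called against Naive rose with it, from 12.4% to 24.9% in IFNγ, 38.6% to 52.4% in αCD3 and 49.3% to 59.5% in LPS. Beyond the 6 member calls named with it above, the replicate block changed no other member call. Scaling by library size alone moved the median log2 fold change of all genes to -0.22 in LPS, -0.16 in IFNγ and -0.13 in αCD3 against Naive.

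Signs changed for differences that had not passed the test. Ly6c2 in IFNγ against LPS (-0.02) was 0 with DESeq2, 0.05 by library size, 0.28 without IFNγ replicate 1, 0.17 without LPS replicate 2, 0.08 without the replicate 1 libraries and 0.02 summed with Ly6c1; over all single libraries left out it ran from -0.32 to 0.28. Summed over the 4 near-copies it was 0.53, but that sum holds Ly6i, chosen for its IFNγ level, so it does not bear on the sign for Ly6c2. Ly6e in LPS against Naive (0.04) was -0.18 by library size, -0.21 without Naive replicate 1, -0.09 without Naive replicate 3, -0.09 without LPS replicate 2 and -0.19 without LPS replicate 3, in a range of -0.21 to 0.49 over single libraries left out. Ly6e in IFNγ against Naive was 0.34 without Naive replicate 2 and 0.45 without IFNγ replicate 3 (range over single libraries left out -0.62 to 0.45; -1.27 with limma-voom), and against LPS it was 0.41 without IFNγ replicate 3 and 0.08 without LPS replicate 3 (range over single libraries left out -0.65 to 0.41; -1.41 with limma-voom). Ly6i in LPS against Naive was -0.08 without Naive replicate 1 (range over single libraries left out -0.08 to 0.68), Ly6d in αCD3 against Naive was 0.04 without Naive replicate 2, and the sum of the 4 near-copies was -0.71 in αCD3 against LPS, where Ly6i alone was 1.55. For the sums the change follows from the added genes. For the others the cause was not tested. The lowest member counts, at which depth limits precision, were 1.851 for Ly6e in IFNγ replicate 3 and 5.411 for Ly6c1 in a Naive library.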
